A study of Mus musculus with 12 samples.

Results

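The genes described here are 32 erythroid genes of the mouse, chosen by name. They code for globins and a globin chaperone, for enzymes and carriers of the haem pathway, for the red cell membrane skeleton with its anion exchanger, for blood group and channel proteins, and for cytosolic proteins such as the carbonic anhydrases. Each gene was read from the probe set that names it alone and has the highest mean over the 12 arrays, and 28 of the 32 were found in this way among 18193 genes. Of these 28, 20 passed the filter on low values, a mean above 5.10 log2 units over all arrays, which left 12918 genes for testing. The 8 below it were Hba-a1, Alas2, Slc4a1, Epb42, Rhag, Kel, Aqp1 and Car1, and Aqp1 missed it narrowly with a mean of 5.08. Hbb-b1 and Hbb-bt were read only by a probe set they share with other beta-globin genes, and no probe set was matched to Ahsp or Epb41.

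The arrays measured mouse bone marrow progenitors sorted as negative for lineage markers and FLT3 and positive for c-Kit and Sca-1. They were cultured for 24 h with stem cell factor and interleukin 6, exposed to a retrovirus for 4 h and kept for a further 20 h before a sort for GFP, with 1 array per sort. INV16 cells (4 arrays, replicates 1 to 4) carried the virus for INV16, the leukaemia fusion of the core binding factor subunit CBFB with the myosin heavy chain MYH11. ACD mutant cells (3 arrays) carried the same fusion without its assembly domain, which does not cause leukaemia per the design text, and MIB control cells (5 arrays, replicates 3 to 7) carried the empty vector. All groups thus share the culture, the infection and the GFP sort, the protein is made from a retrovirus and not from its own gene, and strain, sex and age of the mice are not given in the labels. The values are log2 levels as deposited, low levels are compressed on this scale, and a level compares one gene between arrays and not one gene with another.

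Erythroid cells fill themselves with haemoglobin, a tetramer of alpha and beta globin chains that each hold a haem. Haem is built from glycine and succinyl-CoA by a chain of enzymes that starts with ALAS2 in the mitochondrion, runs through ALAD, UROS and UROD in the cytosol and ends with CPOX, PPOX and FECH back in the mitochondrion, where mitoferrin (Slc25a37) brings the iron. Spectrin, ankyrin, adducin and their partners form the net under the red cell membrane, and the factors GATA1 and KLF1 drive many of these genes during maturation. Sorted stem and progenitor cells lie upstream of that programme.

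The promoters of Rhag, Ermap, Kel and Alas2 are shown, 4 of the 6 genes farthest from the other arrays on INV16 replicate 4, because all 4 hold the letters read by GATA factors. Capitals mark these letters (AGATAA or TGATAA on either strand) and those of the KLF motif CCNCNCCC on either strand. Each is a window of 300 bases, most of them upstream of the start, that runs 5′ to 3′ on the gene's strand in RefSeq's GRCm38.p6: Rhag at chr17:40810899-40811198 (plus strand), Ermap at chr4:119189946-119190245 (minus strand), Kel at chr6:41704276-41704575 (minus strand) and Alas2 at chrX:150547167-150547466 (plus strand).
Rhag: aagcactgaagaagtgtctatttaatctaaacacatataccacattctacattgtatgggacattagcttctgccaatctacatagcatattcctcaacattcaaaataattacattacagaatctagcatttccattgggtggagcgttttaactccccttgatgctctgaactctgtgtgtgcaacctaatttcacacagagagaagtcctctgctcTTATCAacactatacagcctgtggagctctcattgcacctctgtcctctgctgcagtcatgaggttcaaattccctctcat
Ermap: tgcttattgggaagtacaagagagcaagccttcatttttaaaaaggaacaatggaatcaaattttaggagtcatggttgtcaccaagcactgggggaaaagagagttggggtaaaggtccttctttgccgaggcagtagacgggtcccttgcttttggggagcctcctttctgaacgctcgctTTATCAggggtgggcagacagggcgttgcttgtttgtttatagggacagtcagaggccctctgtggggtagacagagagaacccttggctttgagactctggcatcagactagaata
Kel: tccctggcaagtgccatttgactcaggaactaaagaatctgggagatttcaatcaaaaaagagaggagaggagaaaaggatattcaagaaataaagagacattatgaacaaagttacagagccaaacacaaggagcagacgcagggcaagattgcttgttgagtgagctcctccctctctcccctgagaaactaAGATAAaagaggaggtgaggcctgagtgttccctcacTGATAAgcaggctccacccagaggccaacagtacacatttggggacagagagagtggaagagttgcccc
Alas2: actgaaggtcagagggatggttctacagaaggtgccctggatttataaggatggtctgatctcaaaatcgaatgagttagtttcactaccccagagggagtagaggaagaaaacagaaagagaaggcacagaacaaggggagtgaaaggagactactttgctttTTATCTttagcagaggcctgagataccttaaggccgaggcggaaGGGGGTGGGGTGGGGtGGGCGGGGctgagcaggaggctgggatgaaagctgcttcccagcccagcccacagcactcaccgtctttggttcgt
Kel held 2 GATA matches, Rhag, Ermap and Alas2 held 1 each, and Alas2 alone of the 4 held KLF letters, at 4 places, some of which overlap. Blvrb and Fech, also among the genes farthest out on INV16 replicate 4, are not shown. The Blvrb promoters held no GATA letters, and no RefSeq promoter was found for Fech. RefSeq promoters were found for 23 of the 32 genes, 28 promoters in all. Of the 28, 11 held GATA letters, against 18.6% of 32851 promoters of the same length, and 18 held KLF letters, against 49.5%. The RUNX letters TGTGGT, the motif of the factor that CBFB pairs with, stood in 5 of the 28, against 16.8% of all promoters, and the 5 genes were Aqp1, Blvrb, Rhag, Trim10 and Urod. A match is a run of letters and was not shown to be a bound site.

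INV16 replicate 4 was unlike the other 11 arrays and was kept out of the group comparisons, in which INV16 stands for replicates 1 to 3. Its correlation with them across all probe sets was 0.895 to 0.917, against 0.985 to 0.996 among the others. Xist, the RNA that silences an X chromosome in females, measured 12.68 there against 6.02 to 6.48 on the other 11, and the Y-linked Eif2s3y 3.57 against 10.07 to 10.78. As a sign of RNA integrity, the 3′ probe set of Gapdh exceeded the 5′ one by 3.64 log2 on INV16 replicate 4, 3.17 on ACD mutant replicate 1 and 1.10 to 1.98 on the other 10. Among the sort markers Kit measured 10.99 on INV16 replicate 4 and 10.26 to 11.43 on the others, and Flt3 7.70 and 8.03 to 9.76. No probe set was matched to Ly6a, the gene of Sca-1. Cd34, a progenitor marker that was not part of the sort, measured 7.39 and 11.15 to 12.35. The arrays also split by 2 spiked-in bacterial controls: INV16 replicates 1 to 3 and MIB control replicates 3 to 5 had a BioC minus BioB difference of 1.07 to 1.21 log2, and all ACD mutant arrays, MIB control replicates 6 and 7 and INV16 replicate 4 one of -0.11 to 0.07. INV16 and ACD mutant thus shared no side of the split once INV16 replicate 4 was left out, so a difference between these groups and the split cannot be told apart except through MIB control.

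In the other 11 arrays none of the erythroid genes passed the test, and the largest difference among the 20 tested was -0.57 log2, for Alad in INV16 against ACD mutant. The threshold was an adjusted p of 0.05 in limma over 12918 genes. In INV16 against MIB control 0 of 20 passed, beside 1.7% of all genes. In ACD mutant against MIB control it was 0 of 20 beside 1.7%, and in INV16 against ACD mutant 0 of 20 beside 2.07%. At an unadjusted p under 0.05 the counts were 1 of 20 (Alad), 1 of 20 (Bpgm) and 2 of 20 (Alad and Urod), beside 15.8%, 19.5% and 19% of all genes in the same order of comparisons. The median log2 fold change of the 20 was -0.07 in INV16 against MIB control, beside -0.03 for all genes, -0.0025 in ACD mutant against MIB control, beside 0.0063, and 0.06 in INV16 against ACD mutant, beside -0.02.

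The 95% intervals give the range of change for the probe set used of each gene, in the fit without the spike-in split. They do not cover other probe sets or a shift with the split. Urod in INV16 against ACD mutant, for example, was -0.45 in this fit and 0.10 with the split as a block. In INV16 against MIB control the log2 fold changes of the 20 genes ran from -0.50 to 0.26, and all 20 intervals lay within 1 log2 unit of no change, 13 of them within 0.5. In ACD mutant against MIB control the range was -0.48 to 0.21, with 19 intervals within 1 unit and 15 within 0.5. The exception was Car2, whose interval reached -1.18. Among the probe sets not used, a Bpgm set differed by -1.04 and an Abcb10 set by 0.74 in this comparison, both outside that range. In INV16 against ACD mutant the range was -0.57 to 0.32, with all 20 intervals within 1 unit and 11 within 0.5. A comparison of bulk RNA cannot tell fewer erythroid cells from less RNA per cell, and for the 8 genes under the filter a difference could be hidden by compression.

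**Figure D1:**
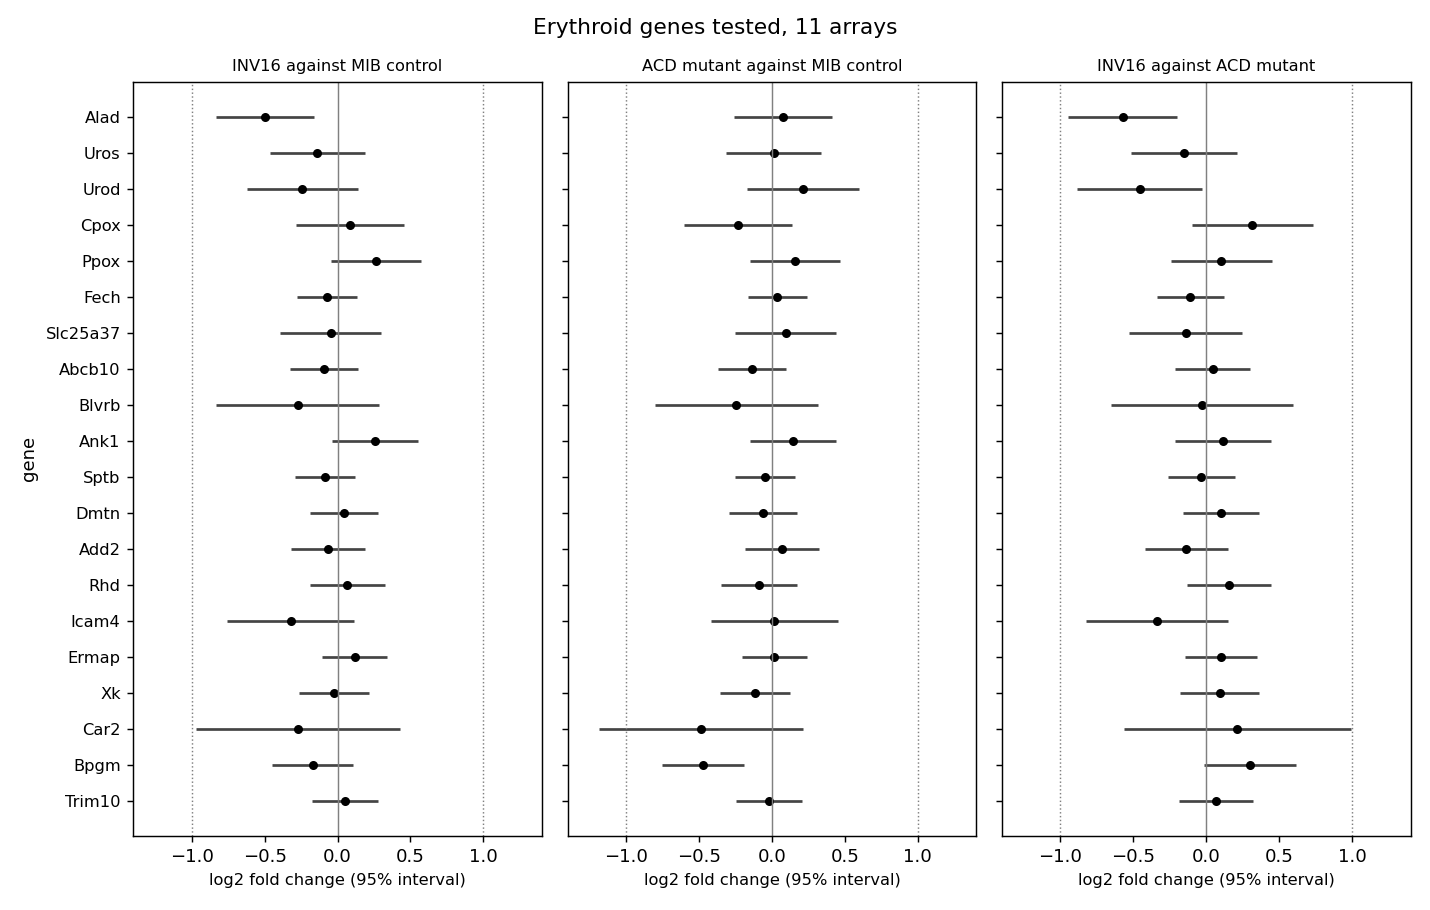
Log2 fold changes (horizontal axis, points) with 95% intervals (lines) of the 20 tested erythroid genes (rows) in INV16 against MIB control, ACD mutant against MIB control and INV16 against ACD mutant, from 11 arrays. Dotted lines mark 1 log2 unit either way, which only the Car2 interval in the middle panel crosses.

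Among the haem enzymes, Alad had the largest difference of the tested genes in both comparisons with INV16. ALAD joins 2 aminolaevulinate molecules into porphobilinogen. Alad measured 10.24, 10.12 and 10.26 in INV16 replicates 1 to 3, 10.73, 10.86 and 10.74 in ACD mutant, and 10.67, 10.18, 10.74, 10.88 and 11.04 in MIB control replicates 3 to 7. All INV16 arrays lay under all ACD mutant arrays, and MIB control replicate 4 lay within the INV16 range. The log2 fold change was -0.57 in INV16 against ACD mutant (SE 0.17, adjusted p = 0.0970) and -0.50 in INV16 against MIB control (SE 0.16, adjusted p = 0.139). Without MIB control replicate 4 both passed, at -0.57 (adjusted p = 0.0293) and -0.63 (adjusted p = 0.0139). Alad also passed in INV16 against ACD mutant when only those groups were fitted (adjusted p = 0.0173). Over its alternatives the adjusted p ran from 0.0173 to 0.835 there and from 0.0139 to 0.461 against MIB control. With the spike-in split as a block the differences were -0.15 against ACD mutant and -0.33 against MIB control, and within the split -0.33 against MIB control. A second Alad probe set differed by -0.17 in INV16 against ACD mutant and by -0.08 in INV16 against MIB control.

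Urod codes for the decarboxylase of the following steps of the same pathway. It measured 10.80, 11.06 and 10.79 in INV16, 11.31, 11.54 and 11.17 in ACD mutant, and 10.70, 10.88, 11.13, 11.33 and 11.59 in MIB control replicates 3 to 7. Every INV16 array lay under every ACD mutant array, with a mean difference of -0.45 log2 (SE 0.20, adjusted p = 0.235), and the MIB control arrays spanned both. The difference turned to 0.10 with the spike-in split as a block, and the other Urod probe set differed by 0.03.

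Blvrb, the biliverdin reductase abundant in red cells, had the widest SD of the 28 genes in the vector control, at 0.58. It measured 6.84, 6.80 and 7.18 in INV16, 6.85, 7.16 and 6.90 in ACD mutant, and 7.08, 6.67, 6.73, 8.04 and 7.55 in MIB control replicates 3 to 7. The 2 highest of the 11 arrays were MIB control replicates 6 and 7. Against MIB control it differed by -0.27 log2 in INV16 (SE 0.26, adjusted p = 0.668) and by -0.24 in ACD mutant (SE 0.26, adjusted p = 0.680), and in INV16 it turned to 0.11 within the spike-in split.

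Ppox, the penultimate enzyme of the pathway, was the only one of the 28 genes whose INV16 arrays all lay above all MIB control arrays, beside 3.08% of all genes. It measured 7.49, 7.52 and 7.53 in INV16 against 6.88 to 7.42 in MIB control. The difference of 0.26 log2 (SE 0.14, adjusted p = 0.401) missed the threshold, and another Ppox probe set ran the other way without overlap, at -0.29. None of the 28 lay entirely below MIB control, beside 4.58% of all genes. Uros, Cpox, Fech, Slc25a37 and the mitochondrial exporter Abcb10 differed by -0.14 to 0.08 in INV16 against MIB control. Fech, ferrochelatase, stayed within 9.34 to 9.68 on all 11 arrays. Alas2, the erythroid form of the first enzyme, measured 3.84 to 4.27 on those arrays, under the filter.

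The globin groups overlapped in most comparisons. The single-gene probe set of Hba-a1 measured 4.09, 4.11 and 4.56 in INV16, 4.18, 4.08 and 4.10 in ACD mutant, and 3.96 to 4.27 in MIB control, with overlapping groups under the filter. The 3 probe sets shared by Hba-a1 and Hba-a2, added after the data were seen, measured 3.95 to 4.71, 4.38 to 4.85 and 6.62 to 7.02 on the same arrays. The set shared by Hbb-b1, Hbb-bt and other adult beta-globin genes measured 11.04, 11.54 and 10.34 in INV16, 11.11, 12.15 and 11.86 in ACD mutant, and 10.80, 11.30, 12.36, 12.30 and 11.58 in MIB control replicates 3 to 7. These groups overlapped in all 3 comparisons, with mean differences of -0.69 in INV16 and 0.04 in ACD mutant against MIB control and -0.73 in INV16 against ACD mutant. The shared sets belong to no single gene and were not tested.

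The membrane skeleton genes differed little. Ank1 (ankyrin), Sptb (beta spectrin), Dmtn (dematin) and Add2 (beta adducin) passed the filter and differed by -0.08 to 0.26 in INV16 and by -0.06 to 0.14 in ACD mutant, both against MIB control. Sptb, for example, stayed between 6.50 and 6.76 on all 11 arrays. Epb42 (protein 4.2) and Slc4a1 (band 3, the anion exchanger) lay under the filter at 4.82 to 5.00 and 4.21 to 4.50. Slc4a1 was the 1 gene of the 28 whose INV16 arrays all lay above all ACD mutant arrays, beside 9.38% of all genes, by a mean of only 0.03.

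Of the blood group genes, Rhd, Ermap and Xk differed by -0.12 to 0.15 in all 3 comparisons. Icam4, the Landsteiner-Wiener adhesion protein, measured 6.92, 6.80 and 6.92 in INV16, 6.95, 7.44 and 7.27 in ACD mutant, and 6.86, 7.10, 6.98, 7.15 and 7.93 in MIB control replicates 3 to 7. Its log2 fold change was -0.34 in INV16 against ACD mutant (SE 0.23, adjusted p = 0.447) and -0.32 in INV16 against MIB control (SE 0.20, adjusted p = 0.478), with MIB control replicate 7 the highest array. With the spike-in split as a block the first turned to 0.22. Alad, Urod, Icam4 and Aqp1 were the 4 of 28 genes whose INV16 arrays all lay below all ACD mutant arrays, beside 14.7% of all genes. Aqp1, the water channel, measured 4.33, 4.39 and 4.82 in INV16, 5.76, 5.53 and 5.31 in ACD mutant, and 4.50, 5.23, 5.06, 5.13 and 5.87 in MIB control replicates 3 to 7. Without the filter INV16 minus ACD mutant was -1.02 log2 (SE 0.26, adjusted p = 0.0730), and with the filter set on the 11 arrays, which Aqp1 passed, the adjusted p was 0.0615. By side of the spike-in split Aqp1 measured 4.33 to 5.23 with the INV16 arrays and 5.13 to 5.87 with the ACD mutant arrays, each with its MIB control arrays. Aqp1 was not fitted with the split as a block, so the part of the split in this difference was not tested.

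Of the cytosolic genes, Bpgm was the 1 gene of the 28 whose ACD mutant arrays all lay below all MIB control arrays, beside 4.97% of all genes, and 0 lay entirely above, beside 5.47%. BPGM makes the 2,3-bisphosphoglycerate that loosens the hold of haemoglobin on oxygen. It measured 8.74, 8.77 and 8.26 in INV16, 8.32, 8.22 and 8.34 in ACD mutant, and 8.97, 8.57, 8.82, 8.70 and 8.75 in MIB control replicates 3 to 7. ACD mutant minus MIB control was -0.47 log2 (SE 0.13, adjusted p = 0.0733), and it was -0.43 within the spike-in split. It passed without INV16 replicate 3 (adjusted p = 0.0468) and after quantile normalisation (adjusted p = 0.0465), and its adjusted p ran from 0.0465 to 0.565 over the alternatives. The other Bpgm probe sets differed by -1.04, with no overlap of the groups, and by -0.30.

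Car2, a carbonic anhydrase that progenitors also make, had the largest standard error of the 20 tested genes. It measured 12.46, 12.46 and 10.80 in INV16, 11.30, 11.77 and 12.01 in ACD mutant, and 11.96, 12.29, 12.27, 11.83 and 12.53 in MIB control replicates 3 to 7. INV16 replicate 3 was the lowest of the 11 arrays. ACD mutant minus MIB control was -0.48 log2 with an SE of 0.32 (adjusted p = 0.459). Car1, the carbonic anhydrase of maturing red cells, measured 4.29 to 5.15 and Trim10, a ring finger protein of late erythroid cells, 4.93 to 5.27.

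Single arrays carried part of the spread. MIB control replicate 7 was the highest of the 11 arrays in 11 of the 28 genes and MIB control replicate 3 the lowest in 9. The same shares over all genes were not counted, so these counts are not particular to the erythroid genes as far as is known. The median of the 28 deviations from the MIB control mean was 0.14 log2 in replicate 7 and -0.14 in replicate 3, against -0.06 to 0.05 in the other 9 arrays.

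INV16 replicate 4 read most erythroid genes higher than the other 11 arrays. It lay above the highest of the other arrays in 22 of the 28 genes, beside 40% of all genes, and by more than 1 log2 unit in 12, beside 4.01%. It lay below the lowest in 4 of the 28, beside 28.4%, and by more than 1 unit in 2, beside 9.95%. The median deviation of the 28 genes from the mean of the other INV16 arrays was 1.04 log2, against 0.13 for all genes. There is 1 such array, so these values have no replicate and no test, and they describe this library and not the INV16 group.

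**Figure D2:**
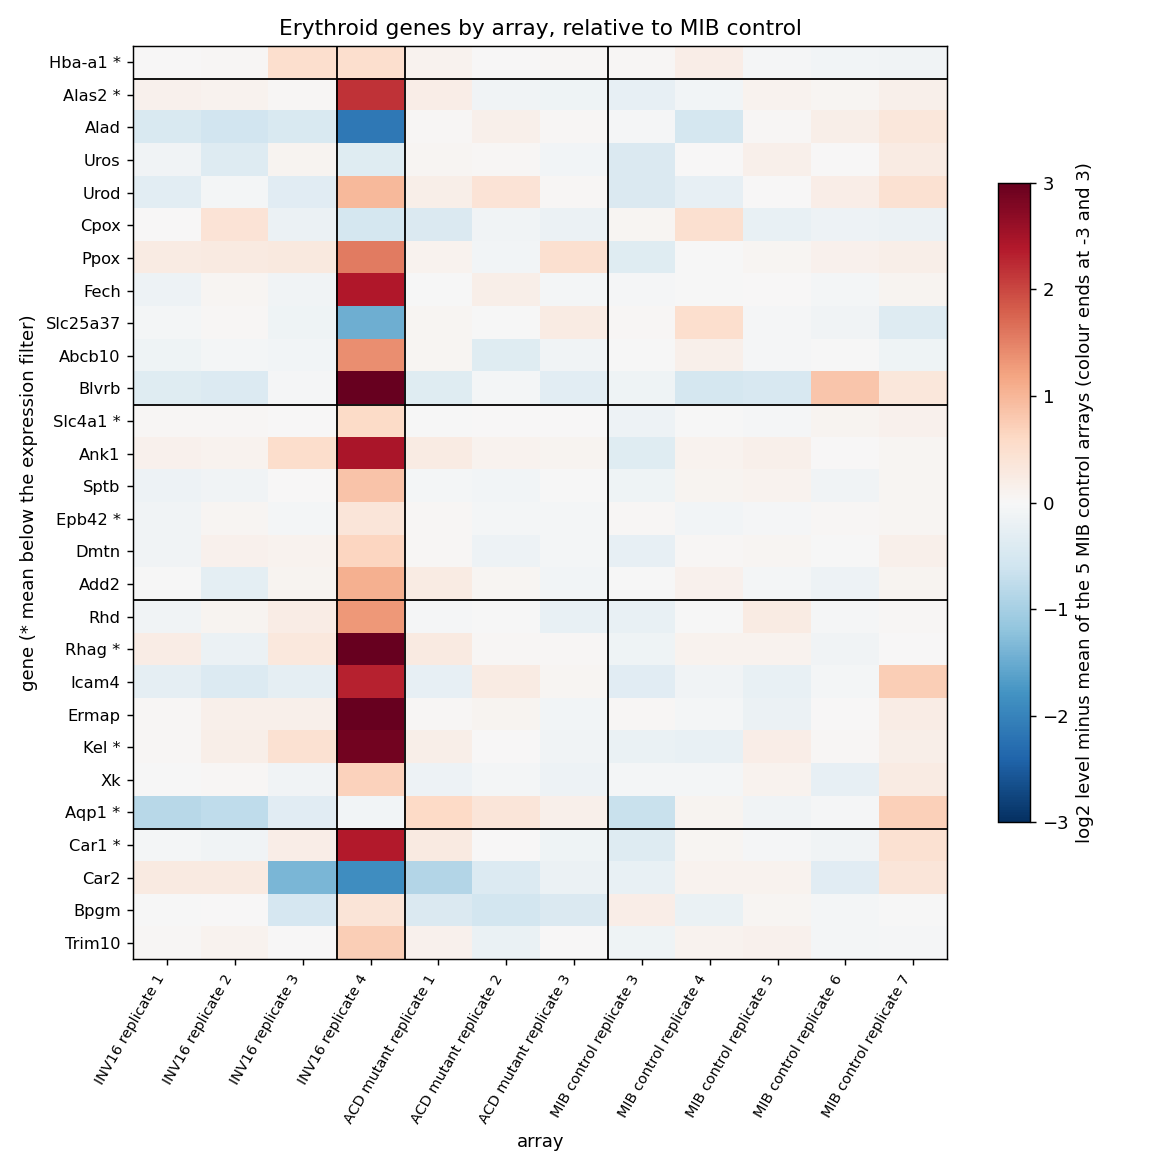
Log2 level minus the mean of the 5 MIB control arrays (colour) of the 28 erythroid genes (rows, grouped by role, an asterisk marking the 8 under the filter) on the 12 arrays (columns). INV16 replicate 4 is red for most genes and blue for Alad, Slc25a37 and Car2. The other 11 columns are pale for most genes, but Car2 on INV16 replicate 3 is blue, at 10.80 against a MIB control mean of 12.18.

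Among the single-gene probe sets, that of a blood group gene lay farthest from the other arrays. Rhag, the Rh-associated glycoprotein, measured 10.56 on INV16 replicate 4, against 3.94, 3.56 and 4.04 on INV16 replicates 1 to 3, 3.76 to 4.00 in ACD mutant and 3.59 to 3.84 in MIB control. That is 6.71 log2 above the mean of the other INV16 arrays for this probe set; those levels are under the filter, so no fold is given. Ermap, a surface protein of erythroid cells that carries the Scianna blood group in humans, measured 8.92 against 4.89 to 5.29 on the other 11 arrays. Kel, the Kell antigen protease, measured 7.56 against 4.44 to 5.13, Icam4 9.51 against 6.80 to 7.93, and Rhd, the Rh antigen, 7.15 against 5.62 to 6.08. Of the 7 genes of the group, 5 lay more than 1 unit above all other arrays. Aqp1, at 5.06, lay within their range.

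**Figure D3:**
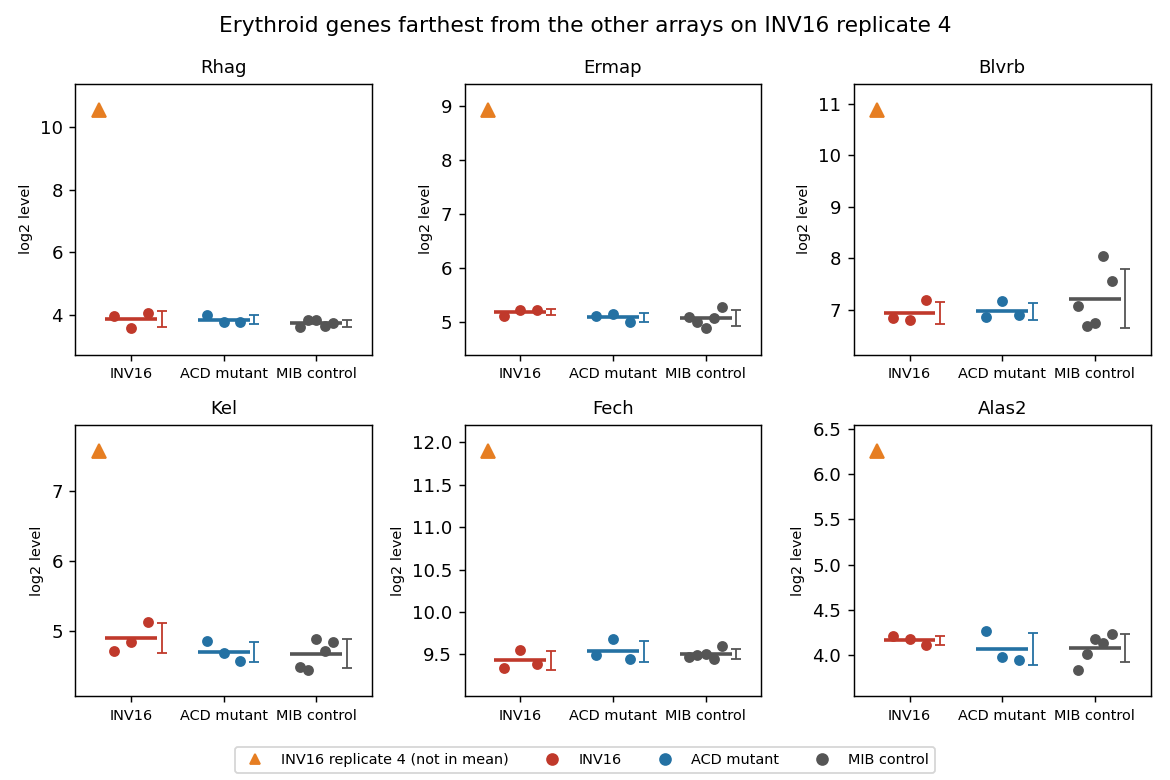
Log2 levels (vertical axes) of Rhag, Ermap, Blvrb, Kel, Fech and Alas2 by group. Points are arrays, bars are means and whiskers are SDs of INV16 replicates 1 to 3, ACD mutant and MIB control, and the triangle is INV16 replicate 4, which lies above every point in all 6 panels.

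The haem pathway split into higher and lower genes on INV16 replicate 4. Blvrb measured 10.88 against 6.67 to 8.04 on the other 11 arrays, Fech 11.90 against 9.34 to 9.68 and Alas2 6.25 against 3.84 to 4.27. Relative to the other INV16 arrays, Blvrb was 15.3-fold and Fech 5.55-fold. Abcb10 (9.04 against 7.29 to 7.81) and Ppox (8.82 against 6.88 to 7.72) were also over 1 unit above all others, and Urod, at 12.09 against 10.70 to 11.59, was above by less. Alad, at 8.55 against 10.12 to 11.04, and mitoferrin, Slc25a37, at 7.25 against 8.32 to 9.21, were over 1 unit below all others. Cpox, at 6.67 against 6.78 to 7.68, was lowest by a small margin, and Uros, at 8.23, lay within the range.

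All 6 measured genes of the membrane skeleton group were highest on INV16 replicate 4. Ank1 measured 9.41 against 6.61 to 7.50, the 1 gene of the 6 that was over 1 unit above. Add2 measured 7.03 against 5.67 to 6.20, Sptb 7.51 against 6.50 to 6.76, Dmtn 7.25 against 6.37 to 6.76, Epb42 5.31 against 4.82 to 5.00 and Slc4a1 4.95 against 4.21 to 4.50. In the cytosolic group Car1 measured 7.08 against 4.29 to 5.15, and Car2, lower than on any other array, 10.31 against 10.80 to 12.53.

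Globin signal followed the same array. The single-gene Hba-a1 probe set measured 4.57 on INV16 replicate 4 against 3.96 to 4.56 on the others, level with the top of their range. The 3 shared alpha-globin sets measured 13.07 against 3.95 to 4.71, 10.51 against 4.38 to 4.85, and 13.75 against 6.62 to 7.02. The shared beta-globin set measured 13.21 against 10.34 to 12.36. The probe sets thus disagreed on alpha globin: the Hba-a1 set lay 0.32 log2 above the mean of the other INV16 arrays, and the 3 shared sets 8.78, 5.75 and 7.04 log2 above their own such means.

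**Figure D4:**
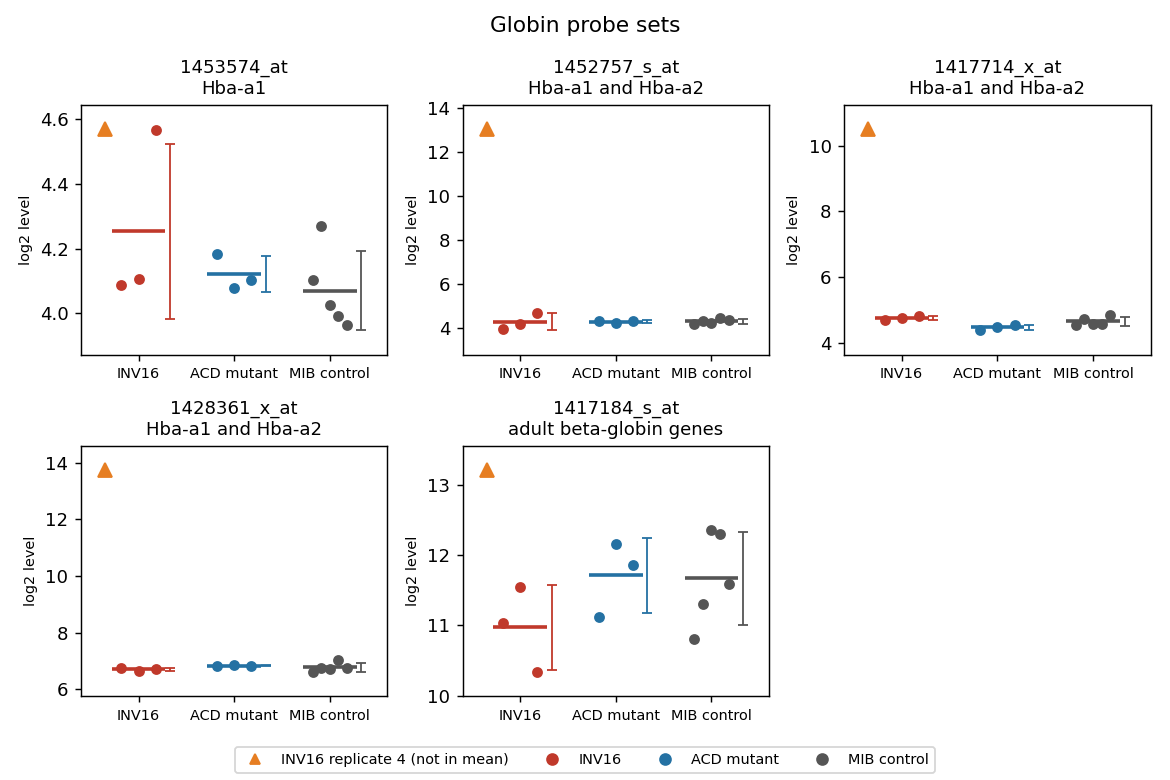
Log2 levels (vertical axes, a separate scale in each panel) of the 5 globin probe sets by group, drawn as in the plot of Rhag and the others: the Hba-a1 set, the 3 sets shared by Hba-a1 and Hba-a2, and the set shared by adult beta-globin genes. INV16 replicate 4 (triangle) lies at 13.07, 10.51 and 13.75 in the shared alpha-globin sets, and every other array lies at 7.02 or below in them.

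Marker lists of other cells are given for the same array, beside the shares of all genes. Of 10 measured mast cell and basophil markers, 7 lay more than 1 unit above all other arrays, beside 4.01% of all genes. Their mean level was 9.96 on INV16 replicate 4, 6.08 to 6.15 on the other INV16 arrays, 6.37 to 6.54 in ACD mutant and 5.79 to 6.45 in MIB control. Of 9 primitive progenitor markers, 6 lay more than 1 unit below all others, beside 9.95% of all genes. Their mean level was 7.36 on INV16 replicate 4, 9.91 to 10.66 on the other INV16 arrays, 10.22 to 10.47 in ACD mutant and 10.06 to 10.40 in MIB control. Of 8 megakaryocyte markers, 3 lay above and 3 below all other arrays, near the shares of all genes, 40% and 28.4%. By more than 1 unit, 2 lay above (Itga2b and Gp5) and 1 below (Pf4), beside 4.01% and 9.95% of all genes. The mean level of the 8 was 7.18 against 6.98 to 8.91 in MIB control. Of 8 neutrophil markers, 2 (Prtn3 and Mpo) lay more than 1 unit below all others, beside 9.95% of all genes. Yet 5 of the 8 lay above their means on the other INV16 arrays. The median deviation of the 8 from those means was 0.29 log2, beside 0.13 for all genes. The mean level of the 8 was 6.61 on INV16 replicate 4, 7.18 to 7.66 on the other INV16 arrays, 7.74 to 8.11 in ACD mutant and 7.79 to 9.45 in MIB control. Of 5 lymphoid markers, 3 lay above and 0 below all other arrays, beside 40% and 28.4% of all genes, and 0 by more than 1 unit. Of 6 monocyte and macrophage markers, 2 lay above and 2 below, beside the same shares, and 1 was below by more than 1 unit. The part of these marker lists in the erythroid values was not tested.

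The wider erythroid pathway was read from a further list of 49 genes, of which 42 were found and 39 tested. In INV16 against MIB control 1 was higher and 3 were lower of 39, beside 0.627% and 1.07% of all genes. In ACD mutant against MIB control 0 were higher and 0 lower, beside 0.991% and 0.712%, and in INV16 against ACD mutant 0 were higher and 4 lower, beside 0.31% and 1.76%. The list holds transcription factors, receptors, further haem, globin and membrane genes and red cell enzymes. It was chosen with earlier results of these data known, so the counts do not test whether the pathway stands out. The genes called lower were Nfe2, Hemgn and Tfr2 in both comparisons of INV16 and Zfpm1 against ACD mutant, and Fhdc1 was called higher against MIB control. Fhdc1 passed the filter only with INV16 replicate 4 counted in its mean. With INV16 replicate 4 kept in, Tfr2 against MIB control was the only one of these 8 calls that remained (adjusted p = 0.0371). Markers of other cells are given beside these calls. The 8 tested megakaryocyte markers had a median of -1.07 log2 in INV16 against ACD mutant, with 1 called lower, and of -0.44 in INV16 against MIB control, and their mean level was 7.09 to 7.21 in INV16, 8.21 to 8.54 in ACD mutant and 6.98 to 8.91 in MIB control. Of 7 tested mast cell and basophil markers, 2 were called lower in INV16 against ACD mutant, where 1.76% of all genes were. In ACD mutant against MIB control 1 of the 7 was called higher, beside 0.991% of all genes. Fcer1a, Cma1 and Il4 among the 7 were high only on INV16 replicate 4. Their medians on the other 11 arrays were 4.82, 4.80 and 4.67, under the filter level of 5.10. The part of these marker lists in the calls was not tested.

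Nfe2, a subunit of a factor that binds the globin locus control region and drives platelet formation, measured 9.02, 9.34 and 9.10 in INV16, 10.78, 11.05 and 10.87 in ACD mutant, and 10.66, 10.21, 10.26, 10.92 and 11.47 in MIB control replicates 3 to 7. No INV16 array reached any other. It fell by 1.55 on the log2 scale against MIB control (SE 0.23, adjusted p = 0.00634) and by 1.74 against ACD mutant (SE 0.26, adjusted p = 0.00721). The first was lost without INV16 replicate 1 (adjusted p = 0.0594, and 0.00347 to 0.0932 over the alternatives). The difference from ACD mutant was -0.93 with the spike-in split as a block (adjusted p = 0.264, and 0.000735 to 0.264 over the alternatives).

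Hemgn, hemogen, a nuclear protein of erythroid progenitors, measured 9.76, 9.59 and 9.72 in INV16, 10.67, 10.76 and 10.68 in ACD mutant, and 10.54, 10.43, 10.24, 10.09 and 11.04 in MIB control. It fell by 0.78 on the log2 scale against MIB control (SE 0.17, adjusted p = 0.0388) and by 1.01 against ACD mutant (SE 0.19, adjusted p = 0.0202). The first call was lost in 14 of 21 alternatives, with an adjusted p of 0.0246 to 0.262 over all 21. Among the 14 were the fits without any 1 of the INV16 or ACD mutant arrays, without MIB control replicate 3 (adjusted p = 0.0580) or without MIB control replicate 5 (adjusted p = 0.0529). The second was lost without INV16 replicate 1 or 2 or any 1 of the ACD mutant arrays (adjusted p of 0.0602 to 0.0958), and with the spike-in split as a block (-0.85, adjusted p = 0.310, and 0.00204 to 0.310 over the alternatives).

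Tfr2, a transferrin receptor of the liver and of erythroid cells that senses iron, measured 8.50, 7.90 and 9.45 in INV16, 9.88, 10.24 and 9.86 in ACD mutant, and 10.23, 10.04, 10.41, 10.36 and 10.51 in MIB control. It fell by 1.70 on the log2 scale against MIB control (SE 0.26, adjusted p = 0.00634) and by 1.38 against ACD mutant (SE 0.29, adjusted p = 0.0302). The first was lost without INV16 replicate 1 (adjusted p = 0.0594, and 0.000257 to 0.406 over the alternatives), and within the spike-in split (-1.61, adjusted p = 0.0921). The second was lost in 8 of 20 alternatives, among them those without INV16 replicate 1 or 2 (adjusted p = 0.0970 and 0.0932), without ACD mutant replicate 1, 2 or 3 (0.0638 to 0.148) and with the spike-in split as a block (-1.17, adjusted p = 0.342).

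Zfpm1, which codes for the GATA1 partner FOG1, measured 7.30, 6.94 and 7.01 in INV16 against 8.42, 8.45 and 8.53 in ACD mutant, with MIB control between 7.12 and 8.69. It fell by 1.38 on the log2 scale in INV16 against ACD mutant (SE 0.32, adjusted p = 0.0433). It was lost in 11 of 20 alternatives, with an adjusted p of 0.00191 to 0.681 over all 20. Among the 11 were those without any 1 of the INV16 or ACD mutant arrays (0.0886 to 0.162), and its difference was -0.31 with the spike-in split as a block. In ACD mutant against MIB control Zfpm1 passed without MIB control replicate 7 (1.08, adjusted p = 0.00988). Fhdc1, a formin-like gene read at 5.37, 5.23 and 5.17 in INV16 and 4.66 to 4.85 in MIB control, was the 1 gene called higher, by 0.49 log2 (SE 0.10, adjusted p = 0.0270). It missed the filter when this was set on the 11 arrays without INV16 replicate 4, and its call was lost without INV16 replicate 1 or 2 or without MIB control replicate 5 (adjusted p of 0.0635 to 0.178).

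Gata1, the master factor of the erythroid and mast cell lineages, measured 8.60, 8.47 and 8.53 in INV16, 10.12, 9.85 and 9.84 in ACD mutant, and 7.68, 8.35, 8.29, 8.78 and 10.08 in MIB control replicates 3 to 7. The ACD mutant arrays and MIB control replicate 7 stood about equally high. ACD mutant minus MIB control was 1.30 log2 with an SE of 0.37 (adjusted p = 0.0833), and INV16 minus ACD mutant was -1.41 with an SE of 0.42 (adjusted p = 0.0936). Without MIB control replicate 7 both passed, at 1.66 (adjusted p = 0.00399) and -1.41 (adjusted p = 0.00508). With the spike-in split as a block they were 0.51 and -0.09, and over the alternatives the adjusted p ran from 0.00399 to 0.892 and from 0.00156 to 0.953. MIB control replicate 7 was also the highest of the 5 control arrays in the megakaryocyte list, at a mean of 8.91 against 6.98 to 7.51 in the other 4, and the ACD mutant arrays had 8.21 to 8.54. The part of these markers in the Gata1 values was not tested.

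Klf1, the factor that switches on adult beta globin, measured 6.24, 6.21 and 6.49 in INV16, 7.06, 6.93 and 6.83 in ACD mutant, and 6.40 to 7.31 in MIB control. Its log2 fold change was -0.62 in INV16 against ACD mutant (SE 0.20, adjusted p = 0.117), it passed without MIB control replicate 7 (adjusted p = 0.0175, and 0.0175 to 0.926 over the alternatives), and it turned to 0.48 with the spike-in split as a block. Epor, the erythropoietin receptor, differed by 0.57 in ACD mutant against MIB control (adjusted p = 0.151). Tfrc, the transferrin receptor that takes up iron, differed by -0.50 in INV16 against ACD mutant (adjusted p = 0.193). On INV16 replicate 4, Gata1 measured 12.53 against 7.68 to 10.12 on the other 11 arrays, Klf1 10.72 against 6.21 to 7.31, Epor 9.20 against 6.73 to 8.30 and Tfrc 8.95 against 11.71 to 12.79.

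**Figure D5:**
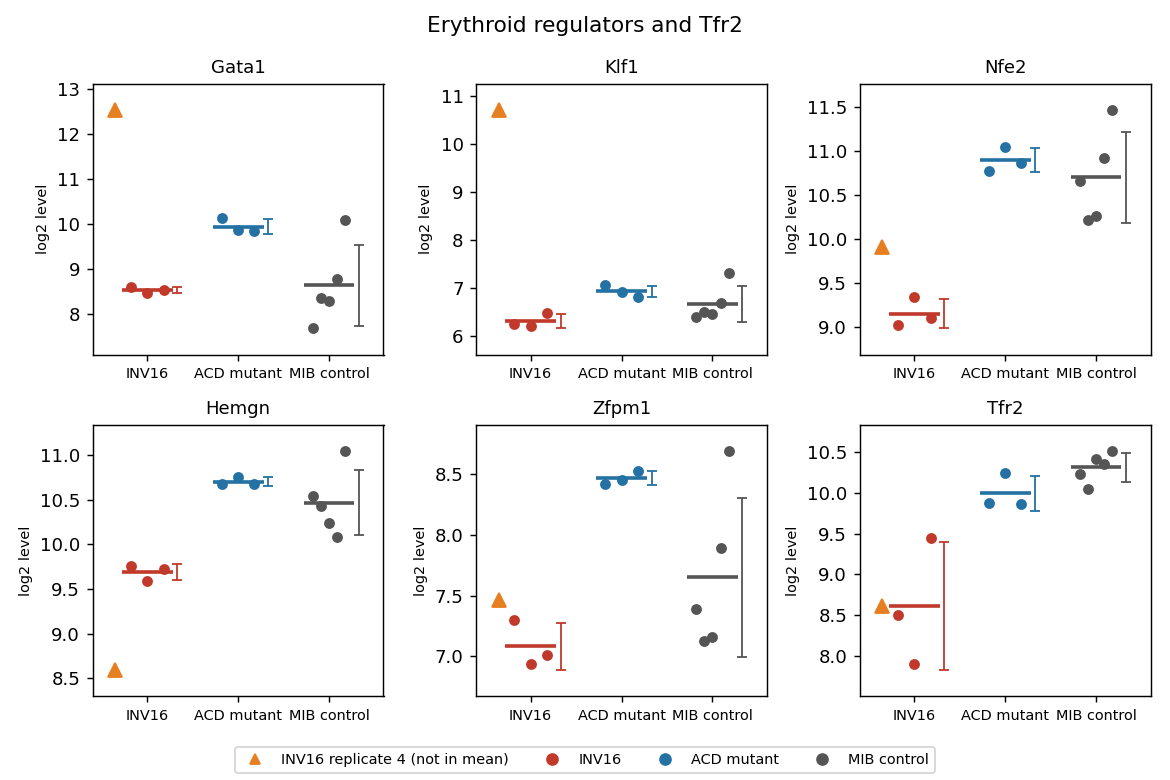
Log2 levels (vertical axes) of Gata1, Klf1, Nfe2, Hemgn, Zfpm1 and Tfr2 by group, drawn as in the plot of Rhag and the others. INV16 replicates 1 to 3 lie under every ACD mutant array in all 6 panels, as they do in 14.7% of all genes. Nfe2, Hemgn, Zfpm1 and Tfr2 were called lower in that comparison, so their order adds nothing to the calls. These groups also lie on different sides of the spike-in split. INV16 replicate 4 (triangle) lies above all arrays for Gata1 and Klf1 and below them for Hemgn.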

How the data were processed

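The deposited table holds 45101 probe sets as log2 levels, summarised by the authors in a way not given in the sources used here; the scale was read from the values. Per the labels' protocols, RNA was amplified in 2 rounds of cDNA synthesis and hybridised to 1 Affymetrix array per sample, 12 in all. Columns left unused numbered 0.

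Gene symbols came from the platform's annotation (34958 with 1 symbol, 932 with several, 9211 with none), and those with several or no symbols and 64 control sets were left out of the tests. Entrez identifiers of 34754 sets matched the RefSeq gene table, which changed 0 symbols. Sets with a mean above the 40th percentile (5.10 log2) were kept, 27022 in all, with 1 set per gene of the highest mean.

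The members and gene lists were chosen with earlier results of these data known. A limma linear model (version 3.58.1, R version 4.3.3) with 3 group means was fitted to 11 arrays, without INV16 replicate 4, and its two-sided p-values were adjusted by Benjamini-Hochberg over 12918 genes. It had 8 residual and 5.04 prior degrees of freedom, was tested on simulated data, and its 95% intervals are per gene. Replicates were separate sorts and transductions per the design text. The number of arrays limits the precision. Named were the 3 tested members with the largest change in each comparison, the 6 farthest outside the other arrays on INV16 replicate 4, the pathway genes called, and Gata1, Klf1, Epor, Tfrc, Nfe2, Kit, Cd34 and Flt3 whatever their values. Ly6a, also in the rule, was not analysed here. Members whose groups do not overlap are named too. The alternatives were INV16 replicate 4 kept in, no filter, the mean of probe sets, quantile normalisation, only the groups compared, a replicate block, the spike-in split, limma's trend and each array left out in turn. A filter on the 11 arrays and the shared globin sets were added after the data were seen.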

Additional observations from a re-analysis of the deposited data

Results flagged for a closer look

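A single array stood far from the rest of its group in 22 cases among the erythroid genes and the pathway genes named above, by the gap to the nearest array as a share of the group's range. For arrays that differ only by chance the rule flags about 1 in 20 groups. In the 4 INV16 arrays it was replicate 4 in all 20 of these cases. That array had already been set apart. Over all genes it lay above the other 11 arrays in 40% and below them in 28.4%, so its flags are no separate result. The share of all genes that this rule flags was not counted. The pathway genes not named above were not searched. This gap share was 0.970 for Ermap, 0.967 for Ppox, 0.966 for Slc4a1, 0.954 for Alas2 and Abcb10, 0.953 for Icam4, 0.931 for Rhag, 0.919 for Fech, 0.906 for Blvrb, 0.889 for Trim10, 0.875 for Car1, 0.855 for Kel and 0.835 for Sptb, all higher on replicate 4. It was 0.918 for Alad and 0.900 for Slc25a37, both lower there. Among the named pathway genes it was 0.967 for Gata1, 0.937 for Klf1, 0.927 for Epor and 0.896 for Fhdc1, all higher, and 0.859 for Hemgn, lower. In MIB control, Ank1 was low in replicate 3 with a gap share of 0.739 and Icam4 high in replicate 7 with 0.730.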

How the results depend on the processing

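Over 21 alternatives no erythroid gene passed except Alad and Bpgm. In INV16 against MIB control the genes called numbered 20 with INV16 replicate 4 kept in, 93 with only these groups fitted, 1 with the replicate number as a block, 30 within the spike-in split and 29 to 332 with an array left out, against 219. In ACD mutant against MIB control they numbered 0 with replicate 4 (892 at an unadjusted p under 0.05 in limma), 72, 24, 20 with the split as a block, 42 within it and 3 to 591, against 220. In INV16 against ACD mutant they numbered 5 with replicate 4, 173 with the mean of probe sets, 840 with only these groups, 0 with the split as a block (1492 at an unadjusted p under 0.05) and 36 to 505, against 267. Members called were 1 in ACD mutant against MIB control after quantile normalisation (Bpgm), 1 in INV16 against ACD mutant with only these groups (Alad) and 0 to 1 with an array left out. The members' median log2 fold change was 0.21 in INV16 against MIB control with replicate 4 and 0.019 with the replicate block, 0.11 in ACD mutant against MIB control with that block and -0.091 with the split as a block and -0.091 within it, and 0.26 in INV16 against ACD mutant with replicate 4. With an array left out it was -0.09 to -0.01, -0.08 to -0.0025 and -0.02 to 0.06. Signs turned for Blvrb in INV16 against MIB control (0.71 with replicate 4, 0.11 with the split as a block or within it), Icam4 in the same comparison (0.34 with replicate 4, 0.070 with the replicate block), Icam4 in INV16 against ACD mutant (0.32 with replicate 4, 0.22 with the split as a block) and Urod there (0.10 with the split as a block). The cause was not tested. Arrays of the same replicate number did not deviate together (correlations of -0.33 to 0.09 over 5 pairs, and -0.24 to 0.42 over the 34 other pairs of different groups), so the numbers were not taken as pairs. The replicate block ended the calls of Nfe2, Tfr2, Hemgn and Fhdc1 in INV16 against MIB control (adjusted p = 0.0932, 0.406, 0.262 and 0.439). The ends of those ranges were without INV16 replicate 1 and MIB control replicate 4, without ACD mutant replicate 1 and MIB control replicate 7, and without ACD mutant replicate 2 and MIB control replicate 7, in the order of the comparisons above. Low signal limits the 8 genes under the filter.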

Other observations

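A second probe set of Abcb10, the mitochondrial transporter that stabilises mitoferrin, differed between the sides of the spike-in split without overlap. It measured 7.57 to 8.08 on the side with all ACD mutant arrays and MIB control replicates 6 and 7, and 6.25 to 7.13 on the side with INV16 replicates 1 to 3 and MIB control replicates 3 to 5. The set used above measured 7.29 to 7.71 and 7.52 to 7.81 on the same sides, which overlap. In the second set INV16 minus ACD mutant was -0.80, also without overlap, and this cannot be told apart from the split. INV16 replicate 4, on the side of the ACD mutant arrays, measured 9.60 in it. The second set was noticed after its values were seen and was not tested.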
